A study of Homo sapiens with 6 samples.

Results

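Mitosis genes were examined as a group of 45 human genes in 2 esophageal adenocarcinoma cell lines, Eso26 and OE33. A gene was a member when its symbol in the gene column of both count tables equalled a symbol of a set list. All 45 were found, each on 1 row per table, among the 37493 gene identifiers of the tables. The series measured RNA by sequencing after transfection of an siRNA, a short RNA that lowers the mRNA it matches. Its 4 RNA groups were Eso26 control, Eso26 siPPARG, OE33 control and OE33 siPPARG, with 1 library each. The controls received a non-silencing siRNA and the siPPARG cells an siRNA against PPARG, a nuclear receptor that switches on lipid genes. All 4 groups were transfected with the reagent Lipofectamine RNAiMAX. The medium was RPMI-1640 for Eso26 cells and DMEM for OE33 cells, per the labels. Line and medium therefore cannot be told apart. The labels name neither the siRNA sequence nor the time after transfection. Triplicates are mentioned in the design text, whereas the tables hold 1 column per condition, and no value below has a replicate check.

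Cells enter mitosis when the kinase CDK1, bound to a B-type cyclin, becomes active, and they leave it when the anaphase-promoting complex (APC/C), a ubiquitin ligase, marks cyclin B and securin for destruction. In between, condensins pack the chromosomes, the spindle binds them at their kinetochores, and the spindle checkpoint holds the APC/C back until all are attached. Many genes for these steps are transcribed together late in the cell cycle, through promoter elements named CHR (bound by complexes of the DREAM and B-MYB families) and CCAAT boxes (bound by NF-Y), and their mRNA is often read as a sign of how many cells in a tumour or culture are dividing.

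Promoter sequences are shown because the members share a type of start region that the choice of members did not use. RefSeq windows on GRCh38.p14, from 250 bases before to 50 bases after a gene's start, matched 38 of the 45 members. AURKA, BIRC5, FOXM1, RACGAP1, TPX2, TTK and UBE2C had no entry in the table. The windows were searched on both strands for CHR (TTTGAA or TTCGAA, the latter its own reverse complement) and for CCAAT. Other forms of the CHR were not searched, so a window without a match is not shown to lack one. A CHR was found in 29 of the 38 members (76.3%) and in 19.6% of all 27058 genes with a window. CCAAT was found in 31 members (81.6%) against 39.8% of all genes, at least 2 matches of it in 19 members (50%) against 12.9%, and both motifs in 25 members (65.8%) against 9.07%. Over the members' windows, the first base of the 44 CHR matches lay at a median of -28 bases from the start, and that of the 72 CCAAT matches at a median of -82. CENPE, CKAP2 and KIF2C had no match to either searched motif in their window. AGGTCA, the core sequence bound by PPAR and other nuclear receptors, stood in 4 of the 38 members (10.5%) and 16.5% of all genes, and a direct repeat of AGGTCA with 1 base between the copies in 0 of the 38 and in 6 genes overall. Some genes have several windows. Among genes with 1 window, a CHR was found in 25 of 32 members (78.1%) and 17.3% of all. A match is a run of letters, not a shown binding site.

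The 250 bases before the start are given, 5′ to 3′ on the gene's strand, for 4 members with both motifs and for CENPE, which had no match to either. Capitals mark CHR and CCAAT matches on either strand. HMMR was shown as the member with the lowest ratio in OE33, and CCNB2, CDC20 and PLK1 as well-known members of different roles. The windows are HMMR chr5:163460382-163460631 (plus strand), CCNB2 chr15:59104896-59105145 (plus), CDC20 chr1:43358731-43358980 (plus), PLK1 chr16:23678639-23678888 (plus) and CENPE chr4:103198344-103198593 (minus), all GRCh38.p14.
HMMR: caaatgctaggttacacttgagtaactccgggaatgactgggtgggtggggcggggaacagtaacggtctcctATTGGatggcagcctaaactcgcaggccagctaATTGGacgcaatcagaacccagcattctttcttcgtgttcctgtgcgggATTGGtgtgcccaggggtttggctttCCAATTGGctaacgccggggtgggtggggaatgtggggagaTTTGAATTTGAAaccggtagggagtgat
CCNB2: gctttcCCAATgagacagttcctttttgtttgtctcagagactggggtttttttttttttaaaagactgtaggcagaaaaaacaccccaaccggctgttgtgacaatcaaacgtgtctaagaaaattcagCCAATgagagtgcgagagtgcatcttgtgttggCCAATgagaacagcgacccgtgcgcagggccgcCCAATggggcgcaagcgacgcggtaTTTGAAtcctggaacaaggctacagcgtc
CDC20: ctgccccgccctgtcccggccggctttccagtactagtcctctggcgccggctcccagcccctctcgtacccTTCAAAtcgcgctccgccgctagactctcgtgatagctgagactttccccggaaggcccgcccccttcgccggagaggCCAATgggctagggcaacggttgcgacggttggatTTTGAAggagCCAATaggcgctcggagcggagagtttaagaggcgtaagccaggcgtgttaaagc
PLK1: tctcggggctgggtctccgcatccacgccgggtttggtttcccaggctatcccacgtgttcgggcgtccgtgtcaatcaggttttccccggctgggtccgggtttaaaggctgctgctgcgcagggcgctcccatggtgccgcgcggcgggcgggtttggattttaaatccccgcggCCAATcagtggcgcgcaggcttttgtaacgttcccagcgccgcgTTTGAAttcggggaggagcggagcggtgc
CENPE: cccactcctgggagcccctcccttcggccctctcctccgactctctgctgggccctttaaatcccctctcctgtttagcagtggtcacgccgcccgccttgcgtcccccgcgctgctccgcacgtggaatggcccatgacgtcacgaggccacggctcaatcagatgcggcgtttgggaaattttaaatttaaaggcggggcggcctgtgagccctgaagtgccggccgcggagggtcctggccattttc
In HMMR, the CHR was present as a tandem pair and CCAAT matches on opposite strands overlapped in CCAATTGG. In CCNB2, 4 CCAAT boxes were followed by a CHR at -29, and in PLK1 a box at -73 by a CHR at -29.

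**Figure D1:**
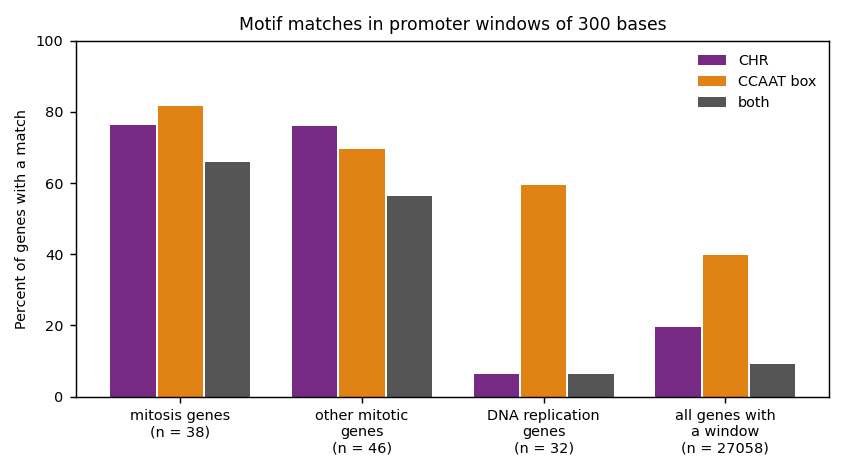
Percent of genes whose 300-base promoter window holds a CHR, a CCAAT box or both, for the mitosis genes, other mitotic genes, DNA replication genes and all genes with a window. CHR matches were found in 76.3% of the mitosis genes and 76.1% of the other mitotic genes, against 6.25% of DNA replication genes and 19.6% of all genes.

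Library totals ran from 16866996 to 23019840 counts. PPARG itself stood at 0.136 times the control in OE33 (95% counting interval 0.120 to 0.153) and at 0.843 in Eso26 (interval 0.698 to 1.02), so no reduction was detectable in Eso26 and its treated library is the library labelled siPPARG wherever Eso26 siPPARG is named. PPARG counts were 259 and 201 in Eso26 control and siPPARG, and 2156 and 313 in OE33 control and siPPARG. The lines thus started apart, with the OE33 control at 11.5 times the Eso26 control (interval 10.1 to 13.2). All 7 epithelial markers (CDH1, CLDN4, CLDN7, EPCAM, KRT8, KRT18 and KRT19) were present, at between 107699 and 165353 summed counts per library, while 7 mesenchymal markers summed to between 74 and 175, 5 immune markers to between 14 and 98 and 4 endothelial markers to between 3 and 83. CD3E and KDR were at 0 in all 4 libraries and VIM at no more than 10 counts.

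Levels below are CPM (read counts relative to library size, scaled with TMM factors over the 4 libraries) in the order Eso26 control, Eso26 siPPARG, OE33 control and OE33 siPPARG. Member counts ran from 271 to 11067, and the 95% Poisson interval of a level had a half-width of 1.89% to 12.4% of it (median 4.24%). Ratios of siPPARG to control were scaled within the 2 libraries compared, and their 95% intervals, like those of levels, cover counting error only. Comparisons of levels are made for the same gene between libraries, never between genes. As these are bulk samples, fewer dividing cells and less mitotic RNA per cell cannot be told apart.

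As a group, the mitosis genes took a smaller share of the RNA in OE33 siPPARG than in its control, with no shift of that size in Eso26. The 45 genes summed to 0.746% of the counts in the Eso26 control (exact binomial 95% interval 0.743 to 0.750), 0.747% in Eso26 siPPARG (0.743 to 0.750), 0.581% in the OE33 control (0.578 to 0.585) and 0.440% in OE33 siPPARG (0.437 to 0.444). As unscaled shares, the 2 Eso26 libraries thus overlapped within counting error, and the OE33 libraries were lower and apart from each other. With TMM factors over the 4 libraries the sums were 7403.2, 7180.9, 5912.6 and 4541.0 CPM, in the same order. Eso26 siPPARG was then slightly under its control, so the Eso26 reading depends on the scaling.

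In OE33, all 45 members were lower in siPPARG than in control, against 51.3% of the 10527 kept genes, those that reached 5 CPM in either library. The members were chosen with earlier results of these data known, so these shares describe the list and are no test. By more than 20%, 34 members were lower (75.6%), against 10.1% of all kept genes, and 0 were higher by more than 25%, the same distance on the log scale, against 10.4%. Past 1.5-fold, 3 were lower (HMMR, NCAPD2 and ECT2; 6.67%), against 2.38%, and 0 higher, against 3.26%. Past 2-fold, 0 were lower or higher, against 0.418% and 1.04%. The counting interval lay below 1 for 43 members (95.6%), against 25.8% of kept genes, and included 1 for CDC25B and KIF18A. Whether an interval clears 1 depends on the number of counts. Kept genes include some with fewer counts than any member, so interval shares here and below are not matched for depth. The median log2 fold was -0.39, a ratio of 0.765, beside -0.01 over all kept genes. The standard deviation of log2 folds was 0.15 across members, against 0.32 across all kept genes. Kept genes ran from -2.873 to 3.116 and include genes with fewer counts, so the smaller spread is not shown to be particular to the members. For 26 of them the interval included the median ratio, while 10 lay wholly below it and 9 wholly above.

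In Eso26, the same genes were spread on both sides of no change. In the library labelled siPPARG, 22 members were lower and 23 higher, against 51.3% and 48.7% of 10449 kept genes, or 20 and 25 without a scaling factor (43.2% of kept genes lower) and 25 and 20 with DESeq2 size factors (55.0% lower). By more than 20%, 1 was lower (ECT2, at the very edge of that threshold; 2.22%), against 8.48%, and 0 were higher by more than 25%, against 7.88%. Past 1.5-fold, 0 were lower or higher, against 1.14% and 1.26%, and past 2-fold 0, against 0.144% and 0.0574%. Counting intervals lay below 1 for 15 members (33.3%), against 29.6%, and above 1 for 11 (24.4%), against 23.6%, so both shares were near the background. That balance turned with the scaling, to 10 below and 17 above without a scaling factor and to 18 below and 8 above with DESeq2 size factors. The median log2 fold was 0.001, beside -0.01 over all kept genes.

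**Figure D2:**
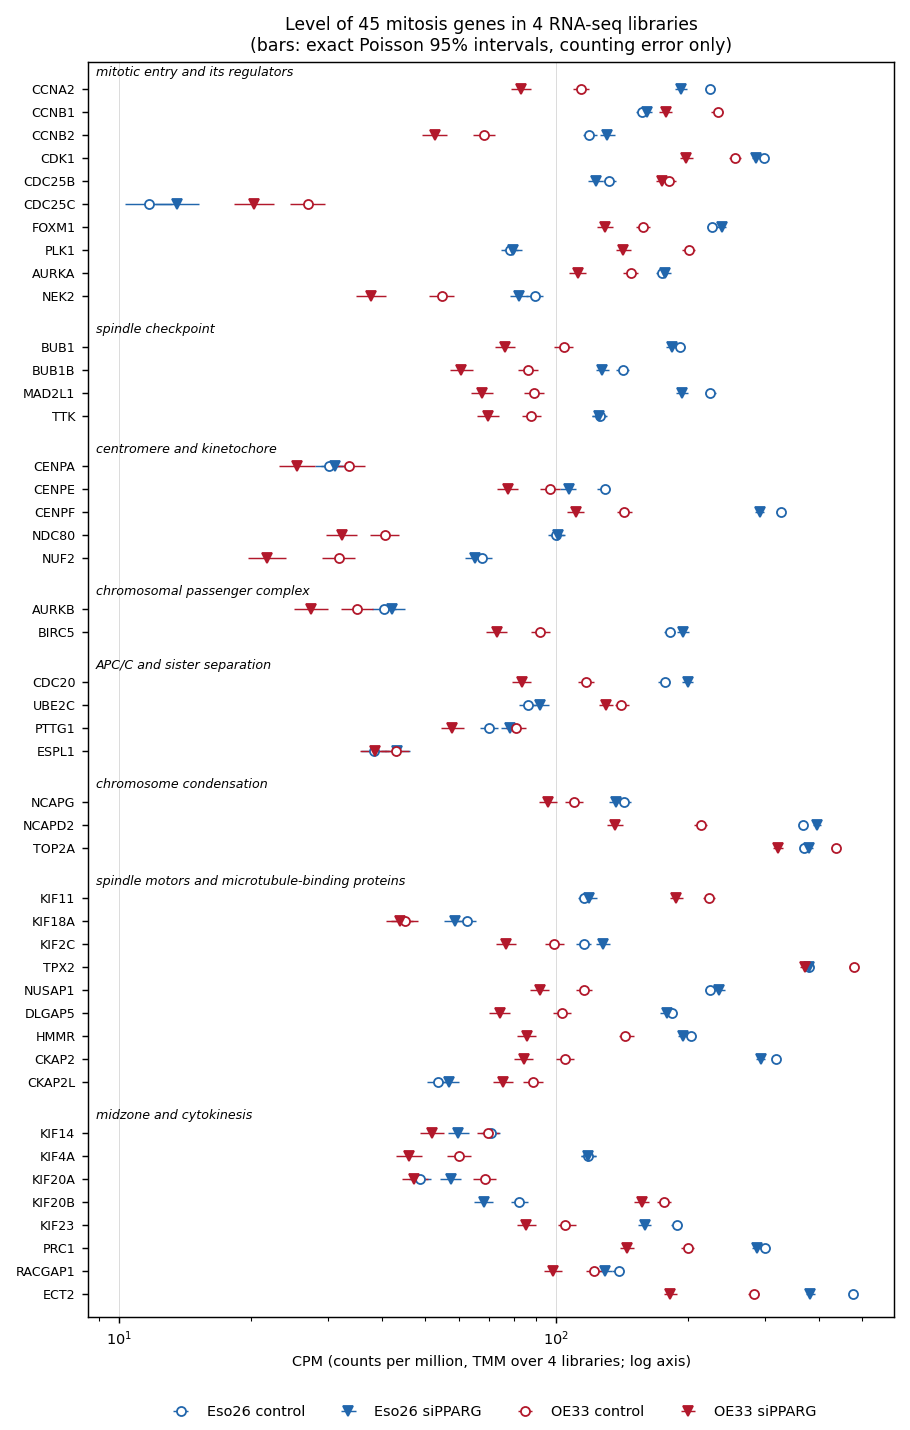
CPM of each of the 45 members in the 4 libraries on a log axis, grouped by role. Open circles are controls, filled triangles siPPARG, blue Eso26 and red OE33, with 1 library per symbol and bars for exact Poisson 95% intervals. In every row the red triangle lies left of the red circle, by the least for KIF18A and CDC25B.

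Mitotic entry genes were lower in OE33 siPPARG for 10 of 10 members, with a median ratio of 0.756, and 8 were lower by more than 20%. NEK2, a centrosome kinase, stood at 89.2, 82.1, 54.7 and 37.7 CPM. It was lowest in OE33 siPPARG, at 0.685 (0.619 to 0.758) times its control, and at 0.920 (0.863 to 0.981) in Eso26. PLK1, the polo-like kinase that drives several mitotic steps, stood at 78.2, 79.6, 201 and 142 CPM. Both OE33 libraries were above both Eso26 libraries for PLK1, and the OE33 ratio was 0.701 (0.665 to 0.739), against 1.02 (0.952 to 1.09) in Eso26. CCNA2, the cyclin A gene of S phase and early mitosis, stood at 225, 193, 114 and 83.2 CPM. It was lower in the treated library of both lines, at 0.724 (0.676 to 0.776) in OE33 and 0.858 (0.824 to 0.894) in Eso26. CDK1 itself stood at 298, 287, 257 and 198 CPM, and its partner genes CCNB1 and CCNB2 at 157, 161, 234 and 178 CPM and at 119, 131, 68.4 and 52.7 CPM. The OE33 ratios of these 3 genes were almost equal, at 0.767 (0.733 to 0.802), 0.755 (0.721 to 0.792) and 0.764 (0.700 to 0.834). In Eso26 CCNB2 was higher, at 1.1 (1.04 to 1.16), while CDK1 was at 0.965 (0.932 to 0.999) and CCNB1 at 1.02 (0.974 to 1.07). FOXM1, a transcription factor of late cell cycle genes, was at 0.814 (0.769 to 0.861) in OE33 and 1.05 (1.01 to 1.09) in Eso26, and the spindle pole kinase AURKA at 0.756 (0.712 to 0.802) and 1.01 (0.970 to 1.06). The phosphatase genes that activate CDK1 differed from each other in OE33, with CDC25C at 0.749 (0.650 to 0.863) and CDC25B at 0.962 (0.914 to 1.01).

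Spindle checkpoint genes were lower in OE33 siPPARG for 4 of 4 members, each by more than 20%, with a median ratio of 0.744. BUB1B, which encodes the checkpoint protein BUBR1, stood at 142, 127, 86.1 and 60.7 CPM, and its relative BUB1 at 192, 184, 104 and 76.4 CPM. The OE33 control was under both Eso26 libraries for these genes and OE33 siPPARG was lower still, at 0.701 (0.647 to 0.759) for BUB1B and 0.731 (0.680 to 0.785) for BUB1. MAD2L1, the MAD2 protein that binds CDC20, stood at 225, 194, 89.0 and 67.8 CPM. It was lower in the treated library of both lines, at 0.756 (0.700 to 0.817) in OE33 and 0.860 (0.826 to 0.896) in Eso26. TTK, the MPS1 kinase that starts checkpoint signalling, was at 0.790 (0.731 to 0.853) in OE33 and 0.995 (0.944 to 1.05) in Eso26.

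Centromere and kinetochore genes were lower in OE33 siPPARG for 5 of 5 members, again each by more than 20%, with a median ratio of 0.771. NUF2, a subunit of the NDC80 complex that grips microtubules, stood at 67.7, 65.1, 31.8 and 21.8 CPM, and NDC80 at 99.7, 101, 40.5 and 32.3 CPM. Their Eso26 libraries overlapped within counting error, while the OE33 ratios were 0.681 (0.596 to 0.778) for NUF2 and 0.793 (0.708 to 0.888) for NDC80. CENPF, a large outer kinetochore protein, stood at 326, 292, 143 and 111 CPM, with an OE33 ratio of 0.771 (0.725 to 0.818) and an Eso26 ratio of 0.895 (0.866 to 0.926). CENPE, a kinetochore motor, stood at 129, 107, 96.7 and 77.4 CPM. Its intervals in the lines overlapped, at 0.794 (0.739 to 0.854) in OE33 and 0.829 (0.785 to 0.876) in Eso26. CENPA, the histone variant that marks centromeres, stood at 30.2, 31.2, 33.6 and 25.5 CPM, and was lowest in OE33 siPPARG, at 0.754 (0.664 to 0.855) times its control.

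The chromosomal passenger complex corrects faulty attachments, and its kinase AURKB stood at 40.4, 42.2, 35.0 and 27.5 CPM. BIRC5, its survivin subunit, stood at 182, 195, 92.0 and 73.1 CPM. Both were lower in OE33 siPPARG, at 0.779 (0.689 to 0.880) for AURKB and 0.789 (0.732 to 0.850) for BIRC5. In Eso26, BIRC5 was at 1.07 (1.03 to 1.12) and the interval of AURKB included 1, at 1.05 (0.953 to 1.15).

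Genes of the APC/C and of sister separation lay on opposite sides of 1 in the lines. All 4 were lower in OE33 siPPARG, with a median ratio of 0.797, and all 4 were higher in Eso26 siPPARG, with a median ratio of 1.12, each with its interval on that side of 1 (for UBE2C in Eso26 by less than rounding shows). CDC20, the APC/C activator that the checkpoint inhibits, stood at 177, 200, 117 and 83.3 CPM. PTTG1, the securin that guards separase, stood at 70.1, 78.4, 80.9 and 57.9 CPM. CDC20 was at 0.708 (0.661 to 0.758) in OE33 and 1.13 (1.08 to 1.18) in Eso26, and PTTG1 at 0.712 (0.656 to 0.773) and 1.12 (1.04 to 1.2). ESPL1, separase itself, which cuts the rings holding sister chromatids, stood at 38.2, 43.3, 42.9 and 38.5 CPM. UBE2C, the ubiquitin-conjugating enzyme of the APC/C, stood at 86.1, 92.0, 141 and 129.8 CPM. Their OE33 differences were small, at 0.891 (0.801 to 0.992) for ESPL1 and 0.913 (0.861 to 0.967) for UBE2C, beside 1.13 (1.03 to 1.24) and 1.07 (1.0 to 1.14) in Eso26. With DESeq2 size factors all 4 kept their direction in both lines, with an interval below 1 in OE33 for 3 (ESPL1 included 1) and above 1 in Eso26 for 3.

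Among genes of chromosome condensation, NCAPD2 had the second lowest ratio of all members in OE33. NCAPD2, a condensin I subunit, stood at 366, 395, 214 and 136 CPM. Its OE33 ratio was 0.632 (0.600 to 0.666) and its Eso26 ratio 1.08 (1.05 to 1.11). NCAPG, another condensin I subunit, stood at 143, 137, 109.7 and 95.6 CPM, with ratios much closer to each other, at 0.866 (0.810 to 0.926) in OE33 and 0.958 (0.911 to 1.01) in Eso26. TOP2A, the topoisomerase that untangles sister DNA, stood at 369, 378, 436 and 322 CPM. The OE33 control was highest for TOP2A and OE33 siPPARG lowest, at 0.734 (0.709 to 0.760) times that control.

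Spindle motors and microtubule-binding proteins held the lowest OE33 ratio, that of HMMR, and the one closest to 1, that of KIF18A. HMMR, a spindle protein, stood at 203, 195, 144 and 85.6 CPM. The Eso26 libraries were near each other for HMMR and OE33 siPPARG was far under its control, at 0.589 (0.552 to 0.628). DLGAP5, which stabilises spindle fibres, stood at 184, 179, 103 and 74.3 CPM, and TPX2, the activator of AURKA, at 378, 379.5, 479 and 369.9 CPM. DLGAP5 was at 0.714 (0.664 to 0.768) in OE33 and TPX2 at 0.767 (0.742 to 0.793), with Eso26 intervals that included 1. KIF2C, a microtubule-depolymerising kinesin, stood at 116, 128, 98.9 and 76.8 CPM, and CKAP2, a spindle-associated protein, at 318, 294, 105 and 84.3 CPM. KIF2C was at 0.771 (0.717 to 0.829) in OE33 and higher in Eso26, at 1.11 (1.05 to 1.17), while CKAP2 was lower in both, at 0.801 (0.747 to 0.859) and 0.924 (0.893 to 0.956). NUSAP1, KIF11 (the motor that separates the poles) and CKAP2L ranged from 0.784 to 0.849 in OE33. KIF18A, a kinesin that limits chromosome movement, was at 0.969 (0.875 to 1.07) in OE33 and 0.941 (0.871 to 1.02) in Eso26.

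Midzone and cytokinesis genes were lower in OE33 siPPARG for 8 of 8 members, with a median ratio of 0.752, and in Eso26 for 6 of 8 (7 of 8 with DESeq2 size factors), with a median ratio of 0.888. ECT2, the exchange factor that turns on RHOA at the cleavage site, stood at 477, 381, 283 and 182 CPM. It was lower in the treated library of both lines, at 0.640 (0.612 to 0.670) in OE33 and 0.800 (0.777 to 0.823) in Eso26. KIF20A, a midzone kinesin, stood at 48.9, 57.3, 68.6 and 47.4 CPM, with ratios on opposite sides of 1, at 0.687 (0.628 to 0.752) in OE33 and 1.17 (1.08 to 1.27) in Eso26. PRC1, which bundles midzone microtubules, stood at 301, 288, 200.2 and 145 CPM, and the kinesin KIF20B at 82.2, 68.2, 176 and 157 CPM. KIF20B was at 0.829 (0.774 to 0.888) in Eso26 and 0.885 (0.840 to 0.933) in OE33, with overlapping intervals, whereas PRC1 was at 0.956 (0.924 to 0.990) and 0.721 (0.685 to 0.760). KIF14 was at 0.740 (0.678 to 0.808) in OE33 and 0.843 (0.783 to 0.908) in Eso26, and KIF23, a subunit of the centralspindlin complex, at 0.804 (0.750 to 0.862) and 0.846 (0.809 to 0.885), with intervals of the lines that overlapped for both genes. The other members, KIF4A and RACGAP1, were at 0.764 and 0.799 in OE33 and at 1.0 (0.948 to 1.06) and 0.931 (0.885 to 0.980) in Eso26.

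**Figure D3:**
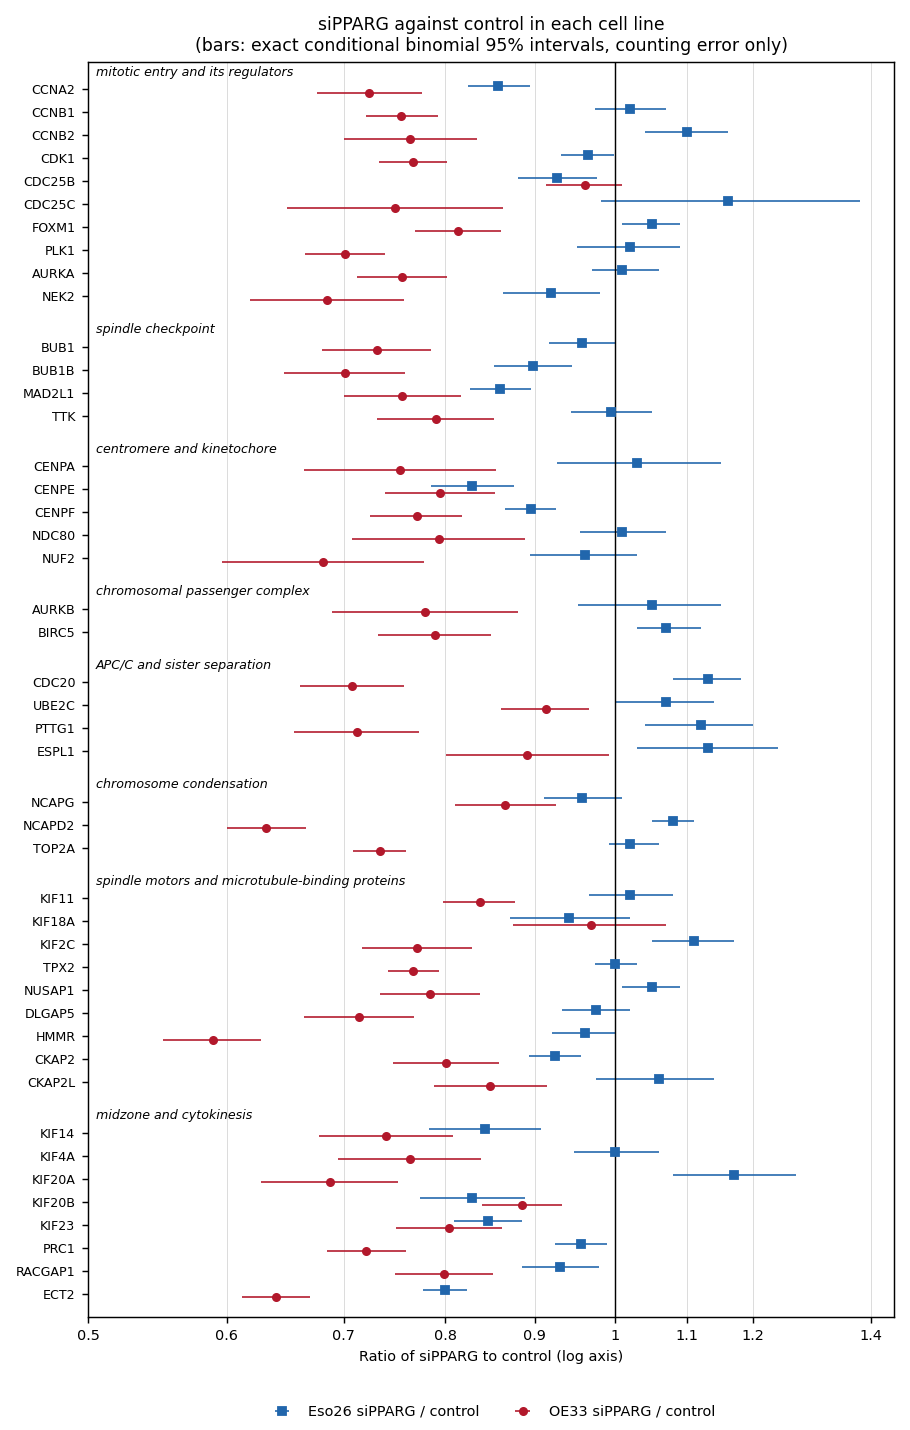
Ratio of siPPARG to control for each member on a log axis, red circles for OE33 and blue squares for Eso26, with exact conditional binomial 95% intervals and 1 library per condition. Every OE33 point lies left of 1, from HMMR at 0.589 to KIF18A at 0.969, while the Eso26 points run from ECT2 at 0.800 to KIF20A at 1.17.

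Set side by side, the OE33 ratio interval lay wholly below that of Eso26 for 38 of 45 members (84.4%), against 17.6% of the 9589 genes kept in both lines, and wholly above it for 0, against 20.6%. The overlapping members were CDC25B, CENPE, KIF14, KIF18A, KIF20B, KIF23 and NCAPG. Intervals lay below 1 in both lines for 14 members (31.1%), against 10.0%, and on opposite sides of 1 (lower in OE33, higher in Eso26) for 11 (24.4%), against 5.97%. Since 43 of the 45 OE33 intervals lay below 1, these counts mostly repeat how many Eso26 intervals lay below and above 1. Those Eso26 shares of members, 33.3% and 24.4%, were near the 29.6% and 23.6% of kept genes. The members on opposite sides were 17 without a scaling factor and 7 with DESeq2 size factors. Whether the response differs between the lines cannot be tested with 1 library per condition. Across the 45 members the log2 folds of the lines showed no relation, with a Pearson's r of -0.0017 and a Spearman's rho of -0.027 (r 0.042 and rho 0.028 over the genes kept in both lines). Genes are not replicates, and the lines share no library in these ratios.

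**Figure D4:**
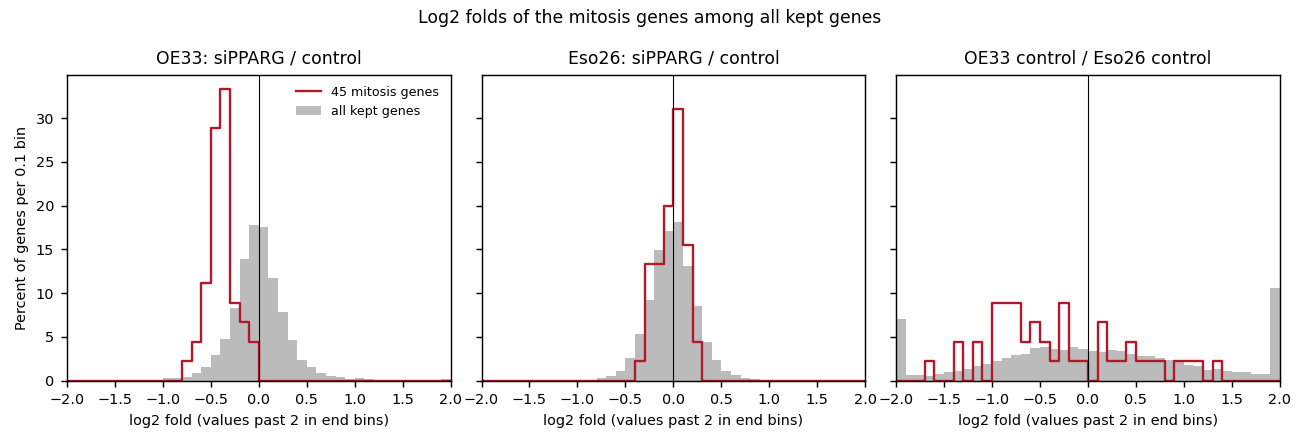
Percent of genes per bin of 0.1 log2 for all kept genes (grey bars) and the 45 mitosis genes (red line) in the 3 comparisons, each between single libraries. The members' median is -0.39 in OE33, 0.001 in Eso26 and -0.48 for OE33 control against Eso26 control, beside medians of -0.01, -0.01 and 0.01 over all kept genes.

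The only replication is the same treatment given in both lines. PPARG was detectably lower in OE33 only, so a shared effect is one of the siPPARG label and not of a shown PPARG reduction in both lines. A fit of the 4 libraries with line and treatment leaves 1 residual degree of freedom. Among 11387 genes, 0 (0%) reached an adjusted p under 0.05 by edgeR's quasi-likelihood test, and so did 0 of 45 members. The members' smallest adjusted p was 0.945. Unadjusted, 561 of 11387 genes and 5 of 45 members had a p-value under 0.05 by edgeR. Those members were ECT2, CCNA2, KIF14, CENPE and MAD2L1, all lower in the treated library of both lines. A low p-value in this fit favours genes whose folds agree between the lines, so that shared direction is no separate result. DESeq2 called 13 genes and limma-voom 0, none of them members. This fit reads a response that differs between the lines as spread, so a shift in OE33 alone raises the error, and 0 calls do not show that it is absent.

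Before any PPARG siRNA, the lines differed in many of the same genes. In the OE33 control, 31 of 45 members were lower than in the Eso26 control (68.9%), against 49.6% of 11200 kept genes, and 14 were higher, against 50.4%. By more than 20%, 25 were lower (55.6%), against 37.9%, and 10 were higher by more than 25% (22.2%), against 39.5%. Past 1.5-fold, 19 were lower (42.2%), against 28.0%, and 6 higher (13.3%), against 31.4%. Past 2-fold the members were fewer than the background in both directions, with 5 lower (11.1%, against 16.6%) and 3 higher (6.67%, against 21.1%). The median log2 difference was -0.48, a ratio of 0.715, beside 0.01 over all kept genes. The standard deviation of these differences was 0.73 across members, against 2.115 across all kept genes. That background ran from -10.579 to 12.376, so it holds genes nearly absent from 1 line, and the members were not set against genes of like level.

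The roles stood differently in the controls. Of the 8 role groups, that of centromere and kinetochore genes had the lowest median ratio, 0.465, with NDC80, CENPF and NUF2 at 0.402 (0.368 to 0.438), 0.435 (0.415 to 0.456) and 0.464 (0.420 to 0.513) times the Eso26 control in OE33, while CENPE was at 0.745 (0.700 to 0.791) and CENPA at 1.1 (0.985 to 1.23). All 4 checkpoint genes were lower in OE33, from MAD2L1 at 0.391 (0.369 to 0.414) to TTK at 0.690 (0.648 to 0.735). CKAP2 had the lowest ratio of all members, at 0.325 (0.309 to 0.343). BIRC5 stood at 0.502 (0.473 to 0.532), CCNA2 at 0.502 (0.476 to 0.530), ECT2 at 0.587 (0.567 to 0.607) and NCAPD2 at 0.579 (0.556 to 0.602). The highest ratios were those of PLK1 at 2.55 (2.41 to 2.7), CDC25C at 2.29 (1.96 to 2.67) and KIF20B at 2.12 (2.0 to 2.25). UBE2C was at 1.62 (1.53 to 1.72), KIF11 at 1.9 (1.81 to 2.0) and CKAP2L at 1.63 (1.51 to 1.76), so a lower level in OE33 was not shared by the whole group. Cyclin partners differed in direction, with CCNB1 at 1.47 (1.4 to 1.54) and CCNB2 at 0.567 (0.529 to 0.608).

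**Figure D5:**
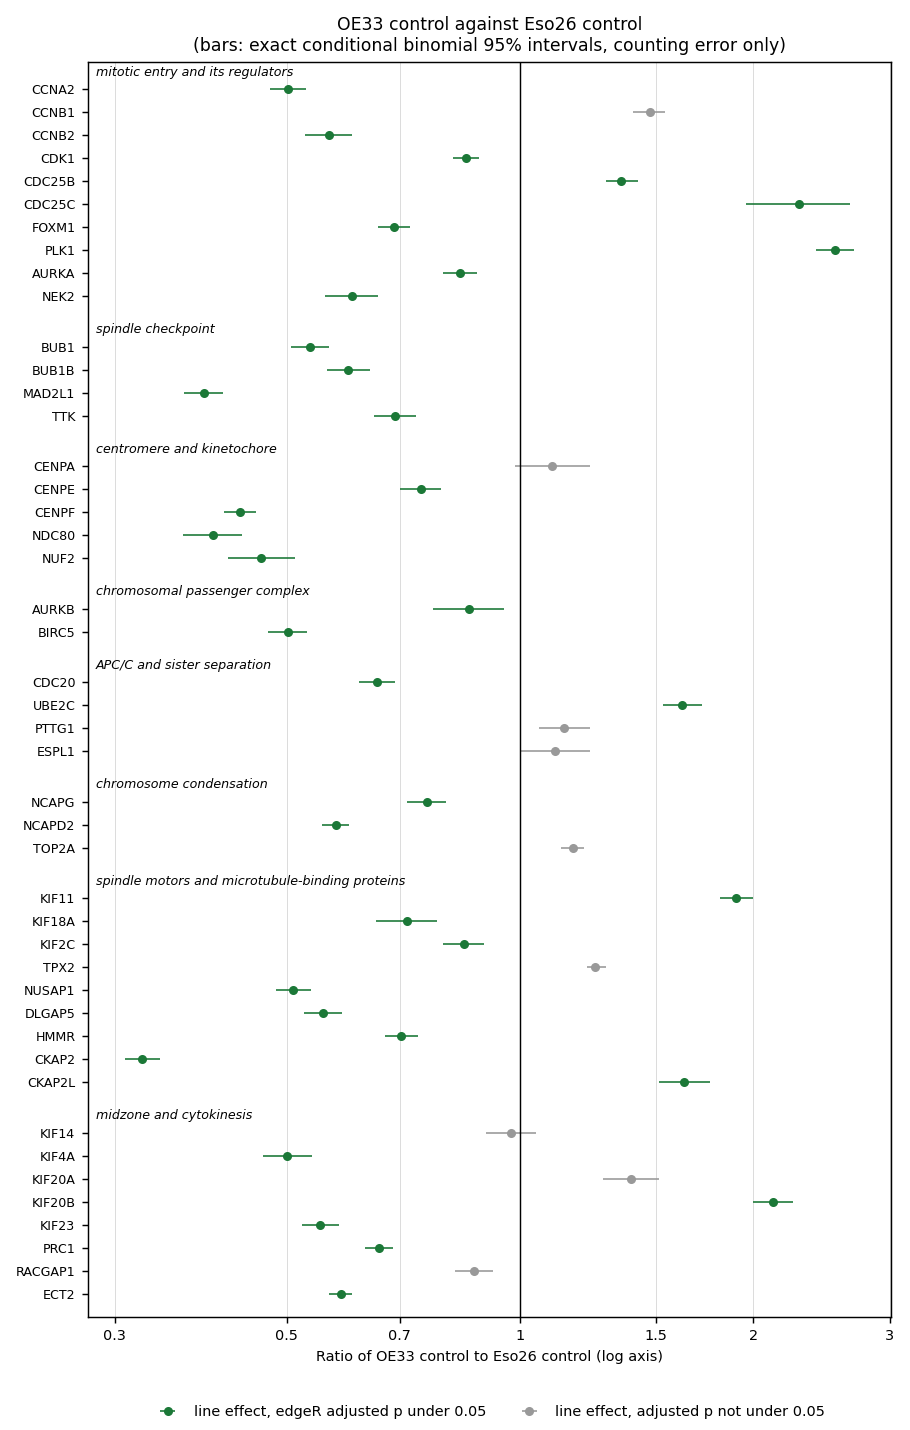
Ratio of the OE33 control to the Eso26 control for each member on a log axis, with exact conditional binomial 95% intervals and 1 library per line. Points in green passed edgeR's test of the line effect in the 4-library fit and grey points did not. That effect also averages in the siPPARG libraries, so the colour is no test of the plotted ratio. The points run from CKAP2 at 0.325 to PLK1 at 2.55.

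In the 4-library fit, the line effect was called for 36 of 45 members by edgeR's quasi-likelihood test at an adjusted p under 0.05. Of them 29 were lower in OE33, against 35.9% of the 11387 genes tested, and 7 were higher, against 36.3%. The 2 libraries of a line differ in treatment and share its medium, and nothing in the labels says whether they came from separate cultures, so these p-values measure only the spread between these libraries. The line effect averages in OE33 siPPARG, where all 45 members were lower, so it is not the difference of the controls. For TOP2A the log2 difference was 0.228 between controls and -0.03 in the fit, and for CDC20 -0.611 and -0.967. For CDC25B, KIF18A and KIF20B the fit was slightly higher than the controls. CKAP2 had a log2 difference of -1.74 (edgeR adjusted p = 5.22e-05), MAD2L1 of -1.47 (edgeR adjusted p = 9.64e-05), and PLK1 of 1.06 (edgeR adjusted p = 0.00114), each with both OE33 libraries on the same side of both Eso26 libraries. The other members called higher in OE33 were CDC25B, CDC25C, CKAP2L, KIF11, KIF20B and UBE2C. CCNB1, CENPA, ESPL1, KIF14, KIF20A, PTTG1, RACGAP1, TOP2A and TPX2 were not called. For CENPA, KIF20A, PTTG1, TOP2A and TPX2 the OE33 control lay above the Eso26 control and OE33 siPPARG below it. Poisson intervals overlapped between the controls for CENPA, and between OE33 siPPARG and the Eso26 control for KIF20A and TPX2.

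A list of 55 other mitotic genes that are not members went the same way in OE33. This list and those below were also chosen with earlier results of these data known, so their direction is no separate support. Of the 55 genes, 52 were lower in siPPARG (94.5%, against 51.3% of kept genes) and 3 higher (51 and 4 with DESeq2 size factors). By more than 20%, 25 were lower (45.5%, against 10.1%), and the median ratio was 0.813, against 0.995 over all kept genes. In Eso26 27 were lower (49.1%, against 51.3%) and 28 higher (50.9%, against 48.7%), and the median ratio was 1.01. CEP55, a protein of the final cut between daughter cells, was at 0.692 in OE33 (interval 0.659 to 0.727) and CENPK, a kinetochore subunit, at 0.723 (0.663 to 0.788). BORA, an activator of AURKA, was at 0.996 (0.838 to 1.19) and SKA3, a kinetochore protein, at 1.05 (0.928 to 1.19). The other genes above 1 in OE33 were MAD1L1 and WEE1, named after their values were seen. Between the controls these were the furthest apart of the list, with BORA at 0.165 and SKA3 at 0.266, and CEP55 at 3.33 and CENPK at 3.23.

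DNA replication genes, which act earlier in the cell cycle, were lower in OE33 siPPARG for 32 of 36 (88.9%, against 51.3% of kept genes), with a median ratio of 0.864. By more than 20%, 8 of 36 were lower (22.2%, against 10.1%). PRIM1, a primase subunit, was at 0.738 (interval 0.660 to 0.826), RFC4 at 0.818 (0.752 to 0.889), CCNE2 at 0.980 (0.827 to 1.16) and GINS3 at 1.07 (0.967 to 1.19). In Eso26 26 of these 36 were higher (72.2%, against 48.7% of kept genes), with a median ratio of 1.06. The core subunits of the APC/C, the complex that CDC20 activates, had a median ratio of 0.980 in OE33. Of them 8 of 13 were lower (61.5%, against 51.3%) and 5 higher (7 and 6 with DESeq2 size factors). CDC16, ANAPC7, ANAPC10 and ANAPC1 were at 1.0, 1.05, 0.994 and 0.943, and all their intervals included 1. Another of the 13 was lower past 1.5-fold (7.69%, against 2.38%), at a log2 fold of -0.731. Counting intervals lay below 1 for 1 of the 13 (7.69%, against 25.8%) and included 1 for 12.

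Regulators of cell cycle transcription leaned slightly lower in OE33, with a median ratio of 0.940 over 23 kept genes. Counting intervals lay below 1 for 8 of them (34.8%, against 25.8% of kept genes) and above 1 for 1 (4.35%, against 24.8%). With DESeq2 size factors these were 6 and 2. Of the 23, 18 were lower (78.3%, against 51.3%) and 5 higher (17 and 6 with DESeq2 size factors). The 5 were CDKN1A, E2F2, E2F3, E2F4 and E2F5, and the 1 gene lower by more than 20% was E2F7, these E2F genes being named after their values were seen. The 1 gene higher by more than 25% was CDKN1A, which encodes the CDK inhibitor p21. It went from 1742 to 2909 counts in OE33, at 1.56 times the control (interval 1.47 to 1.66), and from 826 to 738 in Eso26, at 0.971 (interval 0.878 to 1.07). TFDP1, a partner of E2F factors, was at 0.949 in OE33 (0.906 to 0.995), RBL2, the p130 protein of the DREAM complex, at 0.901 (0.859 to 0.945) and LIN52, another DREAM subunit, at 0.939 (0.777 to 1.13). A part of any of these genes in the members' levels was not tested.

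Members with and without a match to the searched CHR forms in their promoter window had almost equal median log2 folds in OE33. These were -0.40 for each of the 29 and the 9 members, and -0.34 for those without a promoter entry. The 9 may hold forms of the CHR that were not searched, so this does not compare genes with and without the element. With a CCAAT match the median was -0.41 (31 members) and without -0.33 (7 members). HMMR, with both motifs, was lowest in OE33, yet KIF18A, which also holds both, was closest to 1. CENPE, CKAP2 and KIF2C, without a match to either, were at 0.794, 0.801 and 0.771.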

How the data were processed

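RNA-seq gave 1 library for each of the 4 groups. The deposited tables hold whole-number read counts per gene, made by the authors. The submitters' processing notes name Trim Galore, STAR, Bowtie, Picard, MACS2 and hg19 without roles. Not given in the sources used here are the counting program, the annotation and the strand setting, so reads of overlapping and antisense genes may not be separated. The 40 rows that repeat an identifier were summed with their partner. The 2 PPARG ChIP-seq peak lists were not used, because no annotation of their build was at hand.

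Levels are CPM with TMM factors over the 4 libraries (edgeR 4.0.16, R 4.3.3). Ratios used TMM factors within the compared pair, log2 folds a prior count of 2, and kept genes reached 5 CPM in either library of the pair. Intervals are 95% (exact Poisson for levels, exact conditional binomial for ratios, exact binomial for shares). They cover counting error only, and reads without molecular identifiers are not independent molecules. With 1 library per group no comparison within a line has a test. A fit of line and treatment on the 4 libraries used edgeR's quasi-likelihood test with Benjamini-Hochberg adjustment over all tested genes, with DESeq2 1.42.0 and limma 3.58.1 voom as alternatives. It was tested on simulated data in which changed genes shifted equally in both lines. That does not cover a response that differs between the lines. Other alternatives were scaling, prior count and expression filter.

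The members and lists were chosen with earlier results of these data known. Values in all libraries are given, within each of 8 role groups, for up to 3 members with the largest absolute log2 fold in OE33 and for those with the largest in Eso26 and between the controls, and CDK1, CCNB1 and CCNB2 were added after their values were seen. From each other list up to 4 genes with the largest absolute log2 value in any comparison are named.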

Additional observations from a re-analysis of the deposited data

Results flagged for a closer look

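For 11 members the counting interval of the siPPARG to control ratio lay below 1 in OE33 and above 1 in Eso26, which brought them here. As 43 of 45 members lay below 1 in OE33, this state follows mainly from the Eso26 interval. That interval lay above 1 for 24.4% of members and 23.6% of kept genes. With DESeq2 size factors 7 of the 11 kept that state, and ESPL1, FOXM1, NUSAP1 and UBE2C lost it. Without a scaling factor all 11 kept it and 6 more members joined them, for 17. With 1 library per condition, the difference between the lines was not tested. The log2 fold in OE33 minus that in Eso26 was -0.771 for the condensin gene NCAPD2, -0.769 for the kinesin KIF20A, -0.676 for CDC20 and -0.649 for the securin PTTG1. It was -0.522 for KIF2C, -0.519 for CCNB2, -0.442 for BIRC5 and -0.42 for NUSAP1. The smallest were -0.37 for FOXM1, -0.345 for ESPL1 and -0.228 for UBE2C. All 4 genes of the APC/C and sister separation group are among the 11, and CDC20 and PTTG1 are the ones of that group still there with DESeq2 size factors. PPARG itself was at 0.136 times its control in OE33 and 0.843 in Eso26. At 17.8 CPM in OE33 siPPARG it was still above the 11.2 CPM of the Eso26 control. Its part in these differences was not tested.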

How the results depend on the processing

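No paired analysis by replicate number could be made, since each line has 1 library per condition and the labels carry no replicate number. The fit of line and treatment on the 4 libraries already compares treatments within lines, and leaving out a library would leave it no residual degree of freedom. In OE33, all 45 members were lower under each of the scaling, prior count and filter alternatives, and between 31 and 36 were lower by more than 20%. Each filter kept all 45 members, and the prior count hardly matters at 271 or more counts. Only the scaling alternatives could therefore move these values. In Eso26, the count lower by more than 20% was 1 (ECT2) and became 0 without a scaling factor. Directions near no change in Eso26 depend on scaling, from 20 to 25 members lower: TTK and DLGAP5 changed sign without a scaling factor and NDC80, TPX2 and KIF4A with DESeq2 size factors, each with a counting interval that included 1. The shared siPPARG effect, with 0 genes called by edgeR, had 13 by DESeq2 and 64 by edgeR without an expression filter, where more genes were tested. None of these were members, and the cause was not tested. For the line effect, AURKB was not called by DESeq2, RACGAP1 was called by limma-voom and without a scaling factor, and CCNB1 was called without an expression filter. The line effect of TOP2A, which was not called, changed sign without an expression filter. No member with a call, or with a counting interval on 1 side of 1, changed sign. Depth limits the ratios of the least abundant members, such as CDC25C, whose intervals are the widest.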
